A study of Mus musculus with 4 samples.

Results

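Metallothioneins and zinc transporters were examined in RNA sequencing profiles of primary cultures grown from the mouse inner ear, where 2 samples came from vestibular cells and 2 from cochlear cells. The cochlea is the organ of hearing, and the vestibular organs serve balance. The set held 10 genes, taken by gene symbol from the 24346 symbols of the expression tables: the metallothioneins Mt1, Mt2 and Mt3, the zinc importers Slc39a1, Slc39a4, Slc39a8, Slc39a10 and Slc39a14, and the zinc exporters Slc30a1 and Slc30a4. The groups differed by the part of the inner ear the cultures came from, and total RNA of primary cultures was used in both. The labels name no treatment, and the sources used here give no strain, age, genotype, culture time or agent for either group, and they do not say whether samples 1 and 2 of a group came from separate cultures or animals. The p-values below therefore measure only the spread between these samples, which may be technical.

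Cells hold almost all of their zinc bound to proteins. Zinc enters the cytosol through the ZIP carriers (Slc39 genes) and leaves it, to the outside or into vesicles and organelles, through the ZnT carriers (Slc30 genes). Metallothioneins are small cysteine-rich proteins that bind zinc and copper in the cytosol and also take up cadmium. Free zinc switches on Mt1, Mt2 and Slc30a1 through the zinc-sensing transcription factor MTF-1. Several ZIP carriers move other metals as well: Slc39a8 and Slc39a14, which are close relatives, also carry iron, manganese and cadmium.

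The 4 samples were not alike in their cell type markers. The summed level of 14 epithelial marker genes, in FPKM (fragments scaled by transcript length and by the size of the sequenced sample), was 1073 and 112 for the vestibular samples 1 and 2, beside 2110 and 2556 for cochlear 1 and 2. Where values are given in pairs below, sample 1 of the group comes first. Vestibular sample 2 thus stood apart by its low epithelial sum, and it also held the highest sum of 10 cartilage markers (4358 FPKM, against 229.7 to 783 in the other 3 samples). The sum of 12 macrophage markers was 24.3 FPKM in cochlear 2, beside 8809 and 6712 for the vestibular pair and 6765 for cochlear 1. Fibroblast markers summed to 5492 and 11767 FPKM (vestibular), against cochlear sums of 2608 and 2321. Sums of the remaining lists ran from 106 to 326 FPKM for supporting cells, 11.5 to 233 for melanocytes (highest in vestibular 2) and up to 3.04 for muscle and red blood cells. The endothelial list summed to 28.3 to 300.4 FPKM, of which Emcn gave 14.5 to 287. Of its 8 genes, 5 had a mean of at least 1 FPKM over the 4 samples. The other 3, Pecam1, Tie1 and Cldn5, were at or near 0 (at most 0.155 FPKM). Of 10 hair cell markers, 6 stayed under 1 FPKM in every sample, among them Atoh1. The 2 with a mean of at least 1 FPKM were Myo7a (5.81 to 13.4 FPKM) and Myo6 (9.66 to 24.5 FPKM). Most hair cell genes of the list were thus low, and the labelled inner ear origin was not tested with them.

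Of the 10 genes, 9 had a mean of at least 1 FPKM over the 4 samples and were tested, and Slc39a4 was not. None of the 9 was called by limma at an adjusted p under 0.05, where 0.0303% of the 13200 genes tested were called. The zinc, iron and manganese importer Slc39a8 came nearest, with an FPKM 6.10-fold higher in the cochlear than in the vestibular cultures. At an unadjusted p under 0.05 there were 2 of the 9, Slc39a8 (higher in cochlear cultures, as were 10.6% of all genes at that level) and Slc39a14 (higher in vestibular cultures, 7.61%), against a background of 18.2% in either direction. The 2 groups did not overlap in 6 of the 9, with 3 in each direction, and 55.3% of all genes had such groups. Counts of this size are close to the background of these data. A positive log2 difference, vestibular minus cochlear, was found in 4 of the 9 and in 51.4% of all genes, and the median difference of the 9 was -0.00058 on the log2(FPKM + 1) scale, beside 0.011 for all genes. The count at an unadjusted p under 0.05 was 3 without vestibular sample 1, 4 without vestibular 2, and 1 without either cochlear 1 or cochlear 2. An exact permutation of 2 against 2 samples cannot go below a 2-sided p of 0.333, so any call depends on pooling the spread over genes, as limma does.

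**Figure D1:**
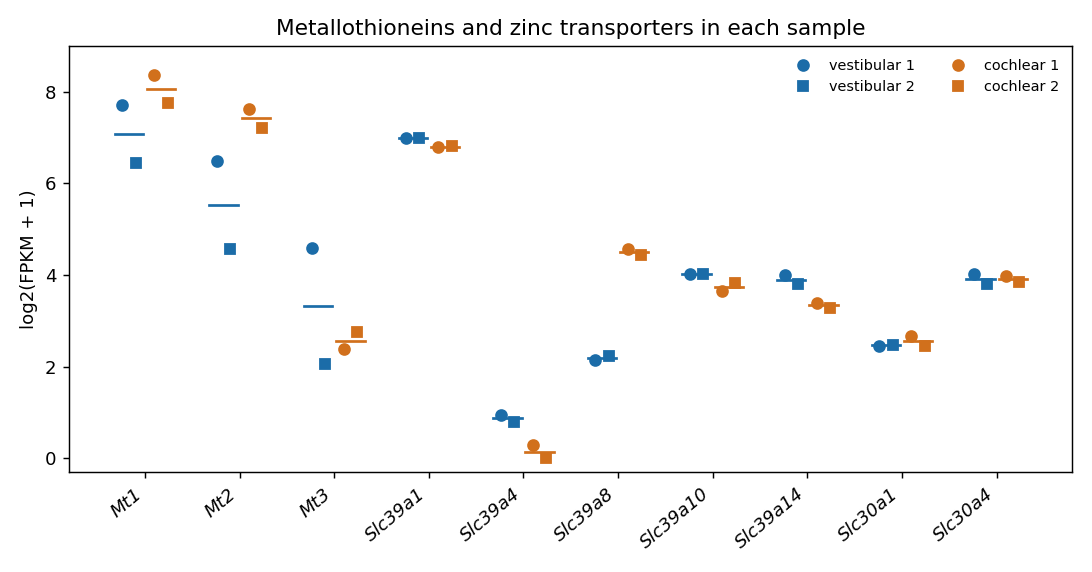
Level of each of the 10 genes in each sample, on the vertical axis as log2(FPKM + 1), with blue for vestibular and orange for cochlear cultures, circles for sample 1 and squares for sample 2, and short lines for group means. Slc39a8 separates the groups most (3.41 and 3.71 against 22.6 and 20.8 FPKM), and Mt1, Mt2 and Mt3 differ most between the vestibular samples.

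Mt1 and Mt2, the widely expressed metallothioneins, lie next to each other on the plus strand of chromosome 8 in mm10, with Mt3, the form known from the brain, upstream of both. The GENCODE annotation places Mt3 at 94152607 to 94154146, Mt2 at 94172664 to 94173568 and Mt1 at 94179082 to 94180327, all protein-coding, with 18517 bases between Mt3 and Mt2 and 5513 between Mt2 and Mt1. The bases before their starts are shown because MTF-1 acts on Mt1 and Mt2 through the metal response element. Mt3 is shown as their neighbour, and Slc30a1 as a transporter gene of the set that is known to share this control. Each line gives the 250 bases before the start that RefSeq annotates on GRCm38.p6, the assembly mm10 names, read 5′ to 3′ on the plus strand. The positions are chr8:94178839-94179088 for Mt1, chr8:94172368-94172617 for Mt2, chr8:94152357-94152606 for Mt3 and chr1:191906531-191906780 for Slc30a1. Capitals mark matches to the element's core, searched on both strands as TGCACNC and TGCGCNC.
Mt1: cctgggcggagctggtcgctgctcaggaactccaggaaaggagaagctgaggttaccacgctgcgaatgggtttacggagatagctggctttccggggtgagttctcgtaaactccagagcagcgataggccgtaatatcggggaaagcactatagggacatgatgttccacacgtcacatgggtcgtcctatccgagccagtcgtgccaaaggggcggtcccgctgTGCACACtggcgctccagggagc
Mt2: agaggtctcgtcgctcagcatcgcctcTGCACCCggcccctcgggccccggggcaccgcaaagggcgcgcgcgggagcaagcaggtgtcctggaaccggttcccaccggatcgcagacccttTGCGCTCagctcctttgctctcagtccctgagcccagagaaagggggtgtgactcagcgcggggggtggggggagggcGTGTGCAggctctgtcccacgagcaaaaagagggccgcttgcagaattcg
Mt3: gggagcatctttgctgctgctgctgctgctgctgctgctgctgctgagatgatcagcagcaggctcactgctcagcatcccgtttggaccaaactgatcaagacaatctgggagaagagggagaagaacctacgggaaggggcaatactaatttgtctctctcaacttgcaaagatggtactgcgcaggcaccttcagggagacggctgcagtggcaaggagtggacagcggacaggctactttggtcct
Slc30a1: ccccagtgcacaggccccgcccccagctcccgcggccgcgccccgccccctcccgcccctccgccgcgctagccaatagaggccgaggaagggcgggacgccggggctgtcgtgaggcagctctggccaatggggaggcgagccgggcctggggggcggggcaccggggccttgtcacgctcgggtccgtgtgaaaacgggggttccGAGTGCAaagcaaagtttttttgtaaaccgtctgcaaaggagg

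In windows of 300 bases, from 250 before the start to 50 after it, Mt2 held 4 core matches, Mt1 held 3, Slc30a1 held 2 and Mt3 held 1. Those of Mt1 began at positions -23, 3 and 21 from the start, and those of Mt2 at -223, -128, -50 and 5, so some lie past the end of the printed lines. The 1 match of Mt3 began at position 28. Among 32851 such windows of all genes, 25.7% held at least 1 match, 7.11% at least 2, 1.97% at least 3 and 0.517% at least 4. RefSeq windows were matched by symbol for 8 of the 10 genes (10 windows, since Slc39a8 and Slc39a10 have 2 starts each), all but Slc39a4 and Slc39a14. The exporter Slc30a4 held 3 matches, and the other windows held 1 (the second start of Slc39a8) or 0. The core of the antioxidant response element, searched on both strands as TGACNNNGC, was present at least 1 time in 12.4% of all windows. It occurred 1 time each in the windows of Mt2, Slc30a1, Slc39a1 and the first start of Slc39a8, and it overlapped no metal response core there. A match describes the letters only. The windows follow the RefSeq starts alone, while GENCODE lists 3 coding transcripts for Mt1 and 2 for Mt2. Matches near any other start of these genes were not counted, so the counts compare windows and not whole promoters.

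**Figure D2:**
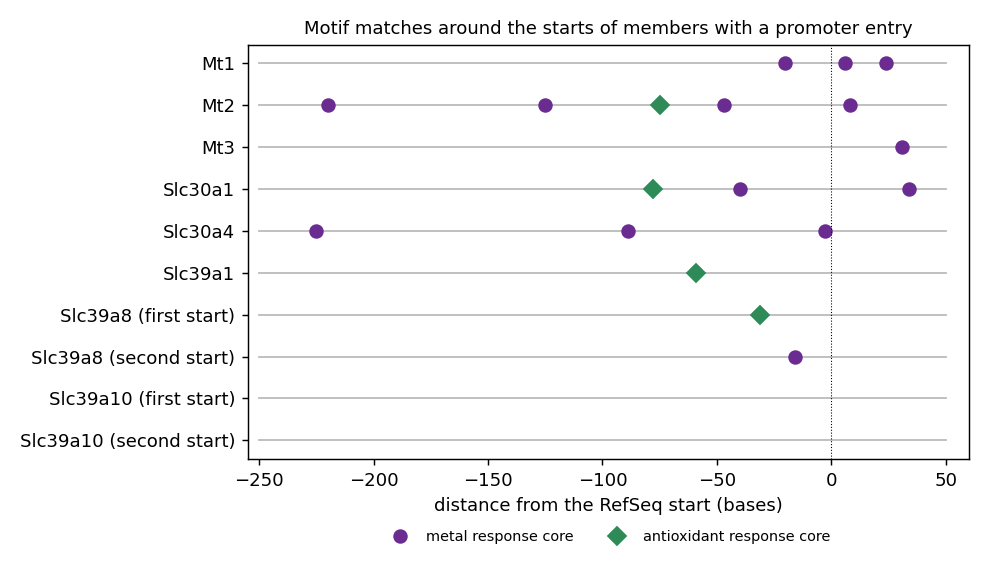
Matches to the metal response core (circles) and the antioxidant response core (diamonds) by distance in bases from the RefSeq start, 1 line per window. Mt2 holds 4 metal response matches and Mt1 holds 3, and Slc30a4 holds 3 as well.

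Mt1 and Mt2 were both at their lowest in vestibular sample 2 and at their highest in cochlear sample 1. For Mt1 the vestibular samples gave 209 and 86.6 FPKM, the cochlear samples 328 and 216. Both cochlear samples lay above both vestibular ones, but vestibular 1 and cochlear 2 were nearly level. The vestibular mean was 148 ± 86.3 FPKM and the cochlear mean 272 ± 79.2 (SD, n = 2 each), a log2 difference of -0.98 (SE 0.52, limma adjusted p 0.399, 95% interval -2.47 to 0.52). Without vestibular 2 that difference was -0.35, and without vestibular 1 it was -1.61. Mt1 thus did not differ between the groups beyond the spread of these samples. In bulk samples such as these, fewer cells of a type and less RNA per cell cannot be told apart.

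Mt2 followed the same order, with a wider step between the vestibular samples and a narrower one between the cochlear samples. Its vestibular values were 88.5 and 22.7 FPKM and its cochlear values 196 and 148, with no overlap between the groups. Its means were 55.6 ± 46.5 and 172 ± 33.8 FPKM (SD, n = 2 each), 3.09-fold higher in the cochlear cultures. The log2 difference was -1.89 (SE 0.72, limma adjusted p 0.296, 95% interval -3.97 to 0.18), -0.94 without vestibular 2 and -2.85 without vestibular 1. The vestibular samples differed 3.89-fold from each other in Mt2 and 2.41-fold in Mt1, against 1.32-fold and 1.52-fold between the cochlear samples.

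The balance between these neighbouring genes differed from sample to sample as well. The FPKM of Mt2 divided by that of Mt1 was 0.424 and 0.263 for the vestibular samples, beside 0.598 and 0.687 for the cochlear ones. Mt1 stood above Mt2 in all 4 samples, and the ratio was higher in both cochlear samples than in either vestibular one. Such a separation reaches an exact permutation p of 0.333 (2-sided), the smallest that 2 against 2 allow. FPKM divides by transcript length, and the annotated coding transcripts of these genes are short and of unequal length (549 to 1085 bases for Mt1, 388 to 511 for Mt2), so levels of the 2 genes depend on the transcript model used. Of all 50-base windows in the longest Mt2 transcript, 45.5% are shared with Gm45774, an antisense gene on the other strand. Gm45774 is not among the symbols of the expression tables. The strand setting of the counting is not given in the sources used here, so reads of that gene could be counted with Mt2.

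Mt3 ordered the samples differently from Mt1 and Mt2. It had 23.2 FPKM in vestibular sample 1 but 3.14 FPKM in vestibular 2, and the cochlear values were 4.20 and 5.74. Vestibular 1 alone was high, and the other vestibular sample was the lowest of the 4, so the groups overlapped. The log2 difference was 0.76 (SE 0.95, limma adjusted p 0.689) and turned to -0.52 without vestibular 1. Mt3 is known from neurons and astrocytes. Among 10 marker genes of glia and Schwann cells, the astrocyte genes Gfap and Aqp4 (singled out after their values were seen) were also highest in vestibular 1, with 12.5 and 5.13 FPKM there and at most 1.17 and 1.58 elsewhere. The sum of that marker list was not highest there (194 FPKM, beside 376 for vestibular 2, 154 for cochlear 1 and 101 for cochlear 2), and 7 of 10 neuron markers stayed under 1 FPKM in every sample. The part of such cells in the Mt3 values was not tested.

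Among the ZIP importers, Slc39a8 and its close relative Slc39a14 had opposite differences. Slc39a8 stood at only 3.41 and 3.71 FPKM in vestibular cultures, while the cochlear values were 22.6 and 20.8, a gap far wider than the 1.09-fold spread inside either group. Slc39a14, which imports zinc and manganese and is known as an acute phase gene of the liver, gave vestibular values of 14.9 and 12.9 FPKM and cochlear values of 9.49 and 8.72. Its groups did not overlap either, with the vestibular cultures 1.53-fold higher. The ratio of Slc39a8 to Slc39a14 was 0.228 and 0.287 for vestibular cultures but 2.38 for either cochlear sample, so Slc39a14 was the higher of the 2 in vestibular and Slc39a8 in cochlear cultures.

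The tests behind these values differed in strength. Slc39a8 had a log2 difference of -2.32 (SE 0.12, 95% interval -2.67 to -1.96, unadjusted p 7.99e-05) and a limma adjusted p of 0.0665, just short of the threshold. Over the 12 alternatives its difference stayed between -2.58 and -1.64, and its adjusted p ran from 0.0577 to 0.482. Slc39a14 had a log2 difference of 0.56 (SE 0.13, 95% interval 0.18 to 0.94, unadjusted p 0.0160, limma adjusted p 0.204). Neither gene is thus called. In mm10 Slc39a8 spans positions 135825279 to 135888572 of chromosome 3 (plus strand), and Slc39a14 spans 70303469 to 70351425 of chromosome 14 (minus strand). Both are protein-coding. Slc39a8 overlaps 4933401H06Rik on the other strand, which is listed at 0 in all 4 samples.

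The summed FPKM of Slc39a8 and Slc39a14 was 18.3 and 16.6 for vestibular cultures, beside cochlear sums of 32.1 and 29.5. The combined level was thus higher in both cochlear samples. No test was run on the sum.

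The other importers differed little. Slc39a1, a carrier of the plasma membrane found in most tissues, measured 125 and 127 FPKM in vestibular cultures, beside cochlear values of 109.6 and 112. The vestibular samples were both higher, by 1.14-fold in the means (log2 difference 0.19, SE 0.10, limma adjusted p 0.385). The pseudogene Slc39a1-ps shares 21.8% of the 50-base windows of the Slc39a1 transcript. The pseudogene is not among the symbols of the expression tables, so how the counting treated shared reads is unknown. Slc39a1 spans 90248172 to 90253612 of chromosome 3 (plus strand), Slc39a10 46807544 to 46892852 of chromosome 1 and Slc39a4 76612383 to 76617384 of chromosome 15 (both minus strand). Slc39a10, an importer with a known role in immune cells, measured 15.2 and 15.3 FPKM (vestibular), beside cochlear values of 11.6 and 13.2. Its groups did not overlap, and its log2 difference was 0.28 (SE 0.12, 95% interval -0.06 to 0.62, limma adjusted p 0.328). Slc39a4, the importer by which the gut takes up dietary zinc, was near the floor, with vestibular values of 0.934 and 0.747 FPKM, 0.229 for cochlear 1 and a listed 0 for cochlear 2.

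The exporters did not differ between the groups beyond the spread between samples. Slc30a1, which moves zinc out across the plasma membrane and is itself a target of MTF-1, gave 4.50 and 4.59 FPKM for vestibular cultures, beside cochlear values of 5.33 and 4.44. The groups overlapped, the log2 difference was -0.08 (SE 0.15), and its 95% interval of -0.52 to 0.36 bounds what these samples allow. Slc30a4, which loads zinc into vesicles and is known for zinc secretion into milk, gave 15.3 and 13.0 FPKM (vestibular), beside cochlear values of 14.8 and 13.4, a log2 difference of -0.00058 (SE 0.14, 95% interval -0.40 to 0.40). The limma adjusted p was 0.798 for Slc30a1 and 0.999 for Slc30a4. Slc30a1 spans 191906767 to 191913247 of chromosome 1 (plus strand) and overlaps the antisense gene 1700034H15Rik, which had at most 0.222 FPKM, and Slc30a4 spans 122681233 to 122702663 of chromosome 2 (minus strand). Their windows hold 2 and 3 metal response cores, against 3 and 4 for Mt1 and Mt2.

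**Figure D3:**
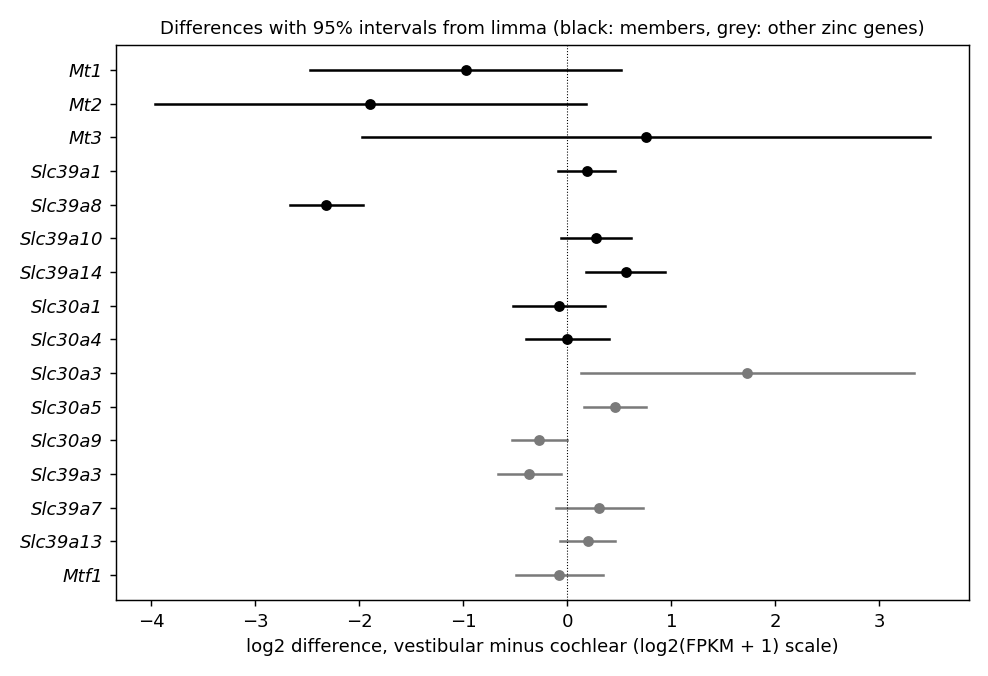
Log2 difference (points; vestibular minus cochlear, log2(FPKM + 1) scale) with the 95% interval from limma (lines) for the 9 genes of the set that were tested (black) and 7 other zinc genes (grey). Slc39a8 lies at -2.32 with a narrow interval, and those of Mt1, Mt2 and Mt3 are the widest of the black lines and include 0.

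By mean FPKM over the 4 samples the order was Mt1 (209.6), Slc39a1 (118), Mt2 (114), Slc30a4 (14.1), Slc39a10 (13.8), Slc39a8 (12.6), Slc39a14 (11.5), Mt3 (9.06), Slc30a1 (4.72) and Slc39a4 (0.477). Only the steps from Mt2 to Slc30a4 and from Slc30a1 to Slc39a4 separated neighbours whose ranges over the samples did not overlap. Mt1 exceeded Slc39a1 in 3 of 4 samples, and Slc39a1 exceeded Mt2 in 2 of 4. Mt1, Slc39a1 and Mt2 thus formed the upper group, while Mt3, the other metallothionein of the set, ranked among the transporters with a range of 3.14 to 23.2 FPKM. In vestibular sample 2, where Mt1, Mt2 and Mt3 were each lowest, Slc39a1 stood above all of them.

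The rest of the zinc system was read from a list of 19 further genes: Mt4, 9 other ZIP genes, 8 other ZnT genes and Mtf1, which encodes MTF-1. Of these 13 were tested, none was called by limma over all genes (against 0.0303% of all genes), and 4 had an unadjusted p under 0.05, with 2 in each direction. The groups did not overlap in 8 of the 13 (55.3% of all genes), 5 of them with higher vestibular values (26.9%) and 3 with higher cochlear values (28.4%). Their median log2 difference was 0.074. The count at an unadjusted p under 0.05 was 2 without vestibular 1, 3 without vestibular 2 and 0 without either cochlear sample. Mt4, the metallothionein of stratified epithelia, was listed at 0 in all 4 samples, as were Slc39a5 and Slc30a8.

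The 4 genes at an unadjusted p under 0.05 were all carriers. Slc30a5, which supplies zinc to enzymes of the secretory pathway, gave 29.1 and 31.4 FPKM for vestibular cultures, beside cochlear values of 22.1 and 21.3 (log2 difference 0.46, limma adjusted p 0.189). Slc30a3, the carrier that fills synaptic vesicles with zinc, gave 1.34 and 5.25 (vestibular), beside 0.154 and 0.151 FPKM (cochlear) (1.73, limma adjusted p 0.256). It was low in every sample, and vestibular 2 held most of it. In the other direction, the plasma membrane importer Slc39a3 had 10.9 and 10.5 against 14.1 and 14.0 FPKM (-0.36, limma adjusted p 0.233), and Slc30a9 29.0 and 29.1 against 35.2 and 35.3 (-0.27, limma adjusted p 0.269).

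The highest of the listed genes were Slc39a7, which releases zinc from the endoplasmic reticulum, at 116 and 138 against 95.5 and 108.7 FPKM, and Slc39a13, a carrier mutated in a connective tissue disorder, at 41.6 and 42.0 against 35.9 and 36.8. Both had groups that did not overlap and were higher in vestibular cultures, with limma adjusted p of 0.362 and 0.357. Mtf1, singled out for its role, gave vestibular values of 3.48 and 3.74 FPKM, beside cochlear values of 3.85 and 3.86 (log2 difference -0.08, SE 0.15). Summed over all 14 ZIP genes the level was 375 and 399 FPKM for vestibular cultures, beside cochlear sums of 344 and 360. Summed over all 10 ZnT genes it was 98.5 and 105 against 97.7 and 94.1. Both sums were higher in both vestibular samples, by small margins.

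Genes of other signals that are known to act on metallothionein genes were counted beside them. The shares among all genes, to read these counts against, were 18.2% at an unadjusted p under 0.05 and 51.4% with a positive difference. Of 7 glucocorticoid response genes tested 3 had an unadjusted p under 0.05. The kinase gene Sgk1 gave vestibular values of 32.2 and 26.3 FPKM and 70.7 for either cochlear sample, while Tsc22d3, which encodes GILZ, had 11.8 and 18.6 against 8.89 and 7.67, so the list went both ways (median log2 difference 0.22). Of 10 oxidative stress genes 9 had a positive difference (median 0.26) and 2 an unadjusted p under 0.05, with the catalase gene Cat at 111 and 117 against 60.1 and 49.5 FPKM. The positive count was 7 of 10 without vestibular 2 or without cochlear 1. Of 10 genes of interleukin 6 signalling and the acute phase, 7 had a negative difference (median -0.44) and 2 an unadjusted p under 0.05. Socs3, the feedback inhibitor of this pathway, had 16.9 and 4.79 against 33.5 and 25.7 FPKM, while Stat3 had 54.8 and 48.0 against 52.9 and 50.7. None of the genes in these lists was called by limma over all genes, the smallest adjusted p being 0.105. The counts at an unadjusted p under 0.05 leaned on single samples. The glucocorticoid count was 1 without vestibular 2, cochlear 1 or cochlear 2, and the oxidative stress count 1 without vestibular 2 or cochlear 2. The acute phase count was 4 without vestibular 1, and without vestibular 2 its genes were split 5 to 5 with a median of -0.055.

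Carriers and stores of other metals were counted because Slc39a8 and Slc39a14 also move iron and manganese and metallothioneins also bind copper. Of 14 tested, 12 had a positive difference (median log2 difference 0.33, against 51.4% of all genes positive). A total of 3 had an unadjusted p under 0.05, near the 18.2% of all genes, and none was called by limma (smallest adjusted p 0.0955). The count at an unadjusted p under 0.05 was 5 without cochlear 1. The ferritin gene Ftl1 gave vestibular values of 4738 and 4316 FPKM, beside cochlear values of 3911 and 2128. Fth1, the other ferritin gene, gave 4154 and 3733, beside 3499 and 1063. Both were lowest in cochlear sample 2, the sample with a macrophage marker sum of 24.3 FPKM. The part of macrophages in the ferritin values was not tested. The copper chaperone gene Atox1 had 311 and 247 against 261 and 265 FPKM, with overlapping groups.

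Profiles close to those of the set were sought among 9583 genes by the root mean square difference of centred log2(FPKM + 1) values over the 4 samples. Nearest to Mt1 were the glycogen phosphorylase gene Pygl (0.075; vestibular 14.5 and 5.77, cochlear 23.3 and 13.5 FPKM), the pseudokinase gene Trib1 (0.085) and the kinase gene Pim1 (0.122). Nearest to Mt2 were Macc1 (0.154), Socs3 (0.189) and the secreted WNT inhibitor gene Sfrp1 (0.222). Nearest to Slc39a8 were the fatty acid amide hydrolase gene Faah (0.086; vestibular 2.03 and 2.04, cochlear 12.8 and 13.3 FPKM), the adhesion gene Sdk1 (0.094) and Pxdc1 (0.109). Slc39a14 was matched most closely by Adamtsl1 (0.018), the receptor gene Il11ra1 (0.022), which has near-identical copies, and the Notch target gene Hes1 (0.031). With 4 samples such closeness is a description only.

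Marker levels were set beside those of these genes. Vestibular sample 2 had the lowest Mt1 and Mt2 levels and the lowest epithelial sum, at 112 FPKM against 1073 in vestibular 1. All 13 epithelial markers tested had a lower log2 mean in vestibular cultures, and the groups did not overlap in 12 of them, Krt18 being 1 of them, where 28.4% of all genes had higher cochlear values without overlap. Of 12 fibroblast markers 12 had a higher log2 mean there, against 51.4% of all genes. Epithelial markers at or near 0 were rare: 1 of 14, Ehf, stayed under 1 FPKM in every sample. The part of these cells in the Mt1 and Mt2 values was not tested. Slc39a8 was nearly level between vestibular 1 and 2 (3.41 and 3.71 FPKM), where the epithelial sum was 1073 and 112, and between cochlear 1 and 2 (22.6 and 20.8 FPKM), where the macrophage sum was 6765 and 24.3. Cdh1, the E-cadherin gene of the epithelial list, was singled out after its values were seen. It had a like profile, with vestibular values of 32.2 and 33.9 FPKM beside cochlear values of 122 and 146 (adjusted p 0.0665 by limma). Every other epithelial marker tested was lower in vestibular 2 than in vestibular 1, with Krt18 at 305 and 11.6 FPKM and Krt8 at 297 and 10.5 in vestibular 1 and 2. The part of epithelial cells in the Slc39a8 values was not tested. On leaving out vestibular 2 the log2 difference of Slc39a8 was -2.36, and on leaving out cochlear 2 it was -2.37.

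**Figure D4:**
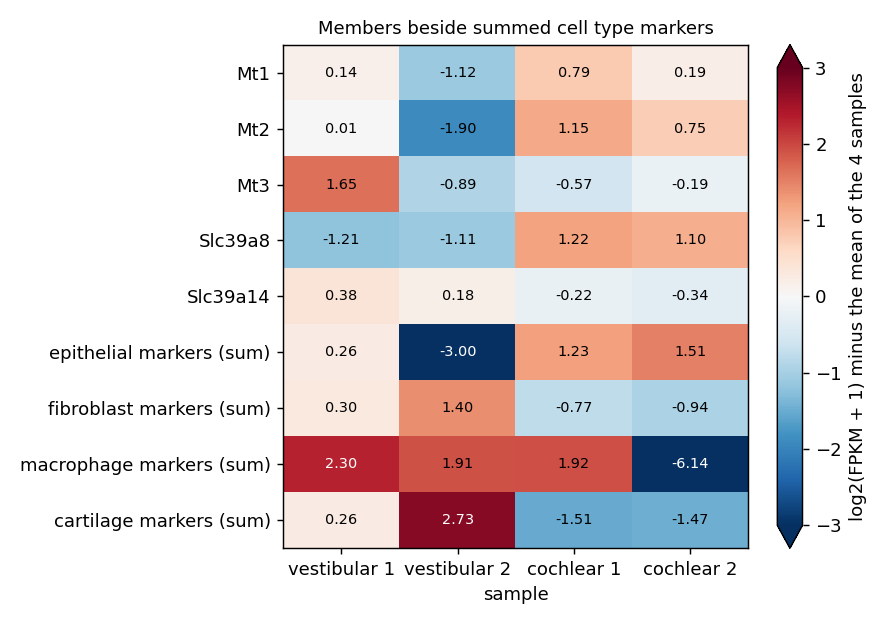
Colour and printed value show log2(FPKM + 1) minus the mean of the 4 samples for 5 genes of the set and for the summed FPKM of 4 marker lists, 1 column per sample; the colour scale ends at -3 and 3. Mt1 and Mt2 reach -1.12 and -1.90 in vestibular 2, where the epithelial sum is lowest too, while Slc39a8 separates the groups evenly and the macrophage sum is low in cochlear 2 alone (-6.14).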

How the data were processed

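RNA of 4 samples from primary cultures (2 vestibular, 2 cochlear) was sequenced. Per the labels' protocols, the libraries were made with a stranded kit selecting mRNA. The deposited values are FPKM, per the file headers, with 1 value per gene symbol and sample and 24346 symbols in each table. The submitters' processing notes name the mm10 build and the tools Cuffdiff 2.2.1, SAMtools 0.1.18, TopHat2 2.1.1 and Bowtie2 2.2.8. How these were set, which annotation served, and whether strand was used are not stated. FPKM totals ran from 479380 to 519122. Fragment numbers are unknown, so no counting interval is given. For short noncoding genes, the most frequent ratio to vestibular sample 1 (tolerance 0.1 percent) was 0.861 to 0.899. It was held by 7 of 33 genes in vestibular 2, 5 of 32 in cochlear 1 and 8 of 36 in cochlear 2. With small whole-number multiples and fractions of it, the counts were 15, 16 and 25. The ratio is thus only a rough guide to what 1 fragment is worth relative to that sample.

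Genes with a mean of at least 1 FPKM (13200) were compared as log2(FPKM + 1), a scale that understates differences of low genes, with limma 3.58.1 in R 4.3.3 (trend, 2-sided) and Benjamini-Hochberg adjustment over all genes kept, threshold 0.05. The fit was tested on simulated data, where differences of 1 or 2 on the log2 scale were mostly not called and some calls were false. A gene not called here may therefore still differ. Positions and transcripts came from GENCODE release M21, start windows from RefSeq on GRCm38.p6. Named were all 10 members, the other zinc genes at an unadjusted p under 0.05 or among the 4 highest, members of the 6 role lists and 11 marker lists by mean FPKM, and the 3 nearest profiles (mean of at least 5 FPKM). Atoh1, Ehf, Cdh1, Pecam1, Tie1, Cldn5, Gfap, Aqp4, Tsc22d3, Hp and Il6ra were named outside that rule, after their values were seen. Mtf1, Mt4, Slc39a5 and Slc30a8 were named for their role or their zeros. Members and lists were chosen with earlier results of these data known. A total of 12 alternatives were run.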

Additional observations from a re-analysis of the deposited data

How the results depend on the processing

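The count of genes called by limma over all genes was 4 as reported, 2 with no filter on low values, 0 with the replicate block, and 0 to 0 on leaving out any sample, with 1018 to 2724 genes at an unadjusted p under 0.05 in those fits of 3 samples. In these the lone sample of a group was assumed to vary like the other group. Neither a gene of the set nor another zinc gene was called under any of the 12 alternatives. At an unadjusted p under 0.05 the set counted 2 genes in the main analysis, 4 with the replicate block and 3 with no filter, where Slc39a4 is tested too. The labels give numbers 1 and 2 in both groups but no shared litter or day, and deviations of same-numbered samples correlated at 0.043 across genes, so the numbers are not taken as pairs. Slc30a4, at -0.00058 on the log2 scale, turned to 0.017 with median scaling and 0.0076 with quantile normalization, and ran from -0.11 to 0.11 on leaving out each sample. Slc30a1 ran from -0.19 to 0.030 and Mt3 from -0.52 to 2.03 on leaving out each sample. The cause was not tested. The other 6 genes of the set that were tested kept their direction under every alternative that was run; Slc30a1 was not tested at a filter of 5 FPKM. No scaling moved the median of all genes by over 0.1 on the log2 scale. Without counts of fragments, the depth behind low values such as those of Slc39a4 is unknown.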
